A study of Mus musculus with 9 samples.

Results

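The nuclear genes of oxidative phosphorylation were described in mouse left lungs, naive or transplanted. They were taken by symbol alone, as the protein-coding genes of complex I (Ndufa, Ndufb, Ndufc, Ndufs and Ndufv), complex II (Sdha, Sdhb, Sdhc and Sdhd), complex III (Uqcr), complex IV (Cox4 to Cox8) and ATP synthase (Atp5, complex V). This gave 92 of the 23944 genes in the deposited tables. They were 36 complex I subunits, 7 complex I assembly factors (Ndufaf), 4 complex II genes, 8 complex III genes, 20 complex IV genes and 17 complex V genes. Ndufa4, now placed in complex IV, and its paralog Ndufa4l2 were counted there, and Atp5s and Atp5sl, which are not subunits of ATP synthase, were kept in the complex V list. A filter on low counts left 90 of the 92 genes for testing. Cox7b2 and Cox8c, isoforms best known from testis, were under it, with at most 0.152 and 0.0997 CPM (counts relative to the scaled size of the library) in any library.

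RNA of whole left lungs of adult wild type mice was sequenced, with 3 libraries in each of 3 groups. Naive lungs came from C57BL/6 mice, and no transplantation is named for them. Cold-ischemia grafts were C57BL/6 lungs stored at 0 °C for 24 h and reperfused for 2 h in Balb/C recipients. Shock grafts came from C57BL/6 donors that first had 4 h of hypovolemic shock, a loss of blood volume with a mean arterial pressure of 15 ± 5 mmHg, and 20 h of recovery. Their lungs then went through the same 24 h of cold ischemia and 2 h of reperfusion in Balb/C recipients. A graft therefore holds donor tissue together with recipient blood cells.

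Oxidative phosphorylation takes place in the inner mitochondrial membrane. Complexes I and II pass electrons to ubiquinone, complex III hands them to cytochrome c and complex IV to oxygen, and complexes I, III and IV pump protons that drive ATP synthase. Most subunits are encoded in the nucleus, while a smaller core is encoded in the mitochondrial genome, so that each complex other than complex II needs both. Several complex IV subunits have paralogs used in muscle, in lung and vessel walls, or under low oxygen. In ischemia and reperfusion, complex II is studied as the place where succinate builds up and is oxidised.

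Total counts ran from 18913487 to 34986276 per library. Markers of alveolar type 2 cells were present in all 9 libraries, at 24010 to 34100 summed CPM. The group of 2 graft libraries was in doubt: the titles make them cold-ischemia replicate 2 and shock replicate 3, and the headers of the deposited tables put each in the other group. The fold changes of the authors' deposited table between the graft groups correlated with those from the tables' grouping at r = 0.938, and with those from the titles at r = 0.552, across 15461 genes, which are not independent replicates. This shows which grouping the authors' fold changes used, and not which label of the 2 libraries is right. Values are given by the titles' groups, and those by the tables' grouping are marked as such. Only the naive libraries carry labels that cite another series' records, and in comparisons with them a batch and the groups cannot be told apart. Nothing in the labels says whether the libraries of a group came from separate experiments, and p-values measure only the spread between these samples.

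In these genes 2 graft libraries stood apart. In cold-ischemia replicate 2 and shock replicate 1 the median of the 90 genes lay at -0.63 and -0.55 log2 units from the naive mean, against -0.06 to -0.01 in the other 4 grafts. Both carry the label of the shock group in the tables, and in the titles each is 1 of 3 in its group. The counts and medians of these genes in grafts, by complex and over all, and the 6 called genes are given with and without them, a choice made after seeing the data.

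Promoter windows of 300 bases around the start site were found for 76 of the 92 genes in RefSeq's table for GRCm38.p6, the same assembly as the mm10 build of the counts. The windows below belong to the gene with the smallest adjusted p in the grafts and to 3 genes of complexes I, III and IV whose windows hold the motifs searched. Capitals mark matches, on either strand, to the palindromic NRF1 motif (nuclear respiratory factor), CCGGAAG (GABP and other ETS factors), AAGATGGC (YY1) and ACGTG (the core of hypoxia response elements).
Ndufv3, chr17:31519865-31520164, plus strand: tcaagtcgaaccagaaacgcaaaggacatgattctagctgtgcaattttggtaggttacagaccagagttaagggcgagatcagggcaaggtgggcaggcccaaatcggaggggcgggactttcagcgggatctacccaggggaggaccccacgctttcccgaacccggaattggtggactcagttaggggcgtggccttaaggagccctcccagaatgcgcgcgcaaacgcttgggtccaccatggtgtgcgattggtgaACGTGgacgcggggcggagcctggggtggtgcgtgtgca
Cox6a1, chr5:115348909-115349208, minus strand: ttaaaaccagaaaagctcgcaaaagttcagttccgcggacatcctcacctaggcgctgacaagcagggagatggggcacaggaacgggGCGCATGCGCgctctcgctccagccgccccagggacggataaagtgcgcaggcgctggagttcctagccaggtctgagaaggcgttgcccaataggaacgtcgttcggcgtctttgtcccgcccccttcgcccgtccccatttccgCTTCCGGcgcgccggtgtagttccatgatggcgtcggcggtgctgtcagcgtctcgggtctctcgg
Uqcrc1, chr9:108936398-108936697, plus strand: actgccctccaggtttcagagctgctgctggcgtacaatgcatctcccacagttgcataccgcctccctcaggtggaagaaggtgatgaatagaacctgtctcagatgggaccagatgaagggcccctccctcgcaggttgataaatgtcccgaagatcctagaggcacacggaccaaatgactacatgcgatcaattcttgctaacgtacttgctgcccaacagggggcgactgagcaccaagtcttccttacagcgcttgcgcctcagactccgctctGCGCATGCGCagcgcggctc
Ndufs7, chr10:80249199-80249498, plus strand: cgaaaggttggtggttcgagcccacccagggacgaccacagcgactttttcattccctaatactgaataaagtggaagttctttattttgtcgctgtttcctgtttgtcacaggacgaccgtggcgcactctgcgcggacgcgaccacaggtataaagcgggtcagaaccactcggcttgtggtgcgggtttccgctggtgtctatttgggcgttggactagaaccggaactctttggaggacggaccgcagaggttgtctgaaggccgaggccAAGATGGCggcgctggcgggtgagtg

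The NRF1 motif was found in 8.54% of the 82 windows of these genes and in 0.971% of all 32851 windows of the table. The YY1 motif was in 14.6% of their windows against 2.75% of all, and the ETS motif in 20.7% against 8.86%. The hypoxia core, which is short, was in 26.8% against 19.6%. By gene, the NRF1 motif was held by 7, the YY1 motif by 11, the ETS motif by 17 and the hypoxia core by 20 of the 76. These are 9.21%, 14.5%, 22.4% and 26.3%, against 1.07%, 3.19%, 9.93% and 21.8% of all 27025 genes with a window. Ndufv3 holds 1 hypoxia core and none of the other 3 motifs, and Ndufa8, Ndufa6 and Ndufb5, which were also lower in grafts, hold none of the 4 within the window. Atp5sl, another gene lower in grafts, has 2 windows that overlap and share the same matches. These are 1 YY1 motif and 1 palindromic stretch, CACGTG, which matches the hypoxia core on both strands. Ndufa4l2, also lower in grafts, is not among the 76 genes with a window. A match is a string of letters and was not tested for binding.

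Most nuclear genes of oxidative phosphorylation were not called different between grafts and naive lungs. Of the 90 genes tested, 6 fell, 0 rose and 84 did not pass the test (edgeR's quasi-likelihood test, Benjamini-Hochberg adjusted p under 0.05 over 15834 genes). That is 6.67% of these genes, while 41.8% of all genes tested were called, 22.1% as higher and 19.7% as lower. The 6 genes were the complex I subunits Ndufv3, Ndufa8, Ndufb5 and Ndufa6, the complex IV paralog Ndufa4l2 and the complex V list's Atp5sl. The median log2 fold change of the 90 was -0.23, with 72 below 0, and that of all genes was -0.05. Whole lung was sequenced, so fewer cells of a type and less RNA per cell cannot be told apart. Neutrophil markers rose in 14 of 14 cases, from 65.0 to 92.1 summed CPM in naive lungs to 1315 to 3455 in grafts, and the part of this in the results was not tested.

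The number of calls depended on scaling, grouping and single libraries, and under each setting given next the called genes were all lower. Scaling by upper quartile called 32 of these genes (48.7% of all genes) and scaling by totals 50 (54.2%). These scalings moved the median of all genes to -0.25 and -0.37 and the share of called genes that were higher from 52.8% to 34.8% and 26.9%, and the median of the 90 genes minus that of all genes was -0.18 under each, as it was under TMM scaling. The grouping of the tables called 18, with 46.4% of all genes called. Without cold-ischemia replicate 3 or shock replicate 3 the count was 10, beside 40.1% and 43.8% of all genes. Without naive replicates 1, 2 and 3 in turn it was 2, 2 and 3, beside 31.8%, 29.7% and 33.8%.

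The fold changes also had bounds. For 35 of the 90 genes the 95% interval of the fold change lay within 1.5-fold in either direction, which held for 20.9% of all genes tested. The fold changes of the 84 genes not called ran from -0.83 to 0.29. As a share of library counts, without TMM scaling, all 92 genes took 0.51% to 0.5471% in naive lungs and 0.3145% to 0.4451% in grafts. Summed with TMM scaling over all 92 genes, the level was 4512 to 4681 CPM in naive lungs. It was 4613 to 4804 CPM in 4 of the grafts, and 3450 and 3495 CPM in cold-ischemia replicate 2 and shock replicate 1. Without those libraries 6 genes, and 37.4% of all genes, were called: Ndufv3, Ndufa8, Ndufa6 and Ndufa4l2 as lower, and Uqcrfs1 and Atp5f1 as higher. The median of the 90 was then -0.09, beside -0.05 for all genes.

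**Figure D1:**
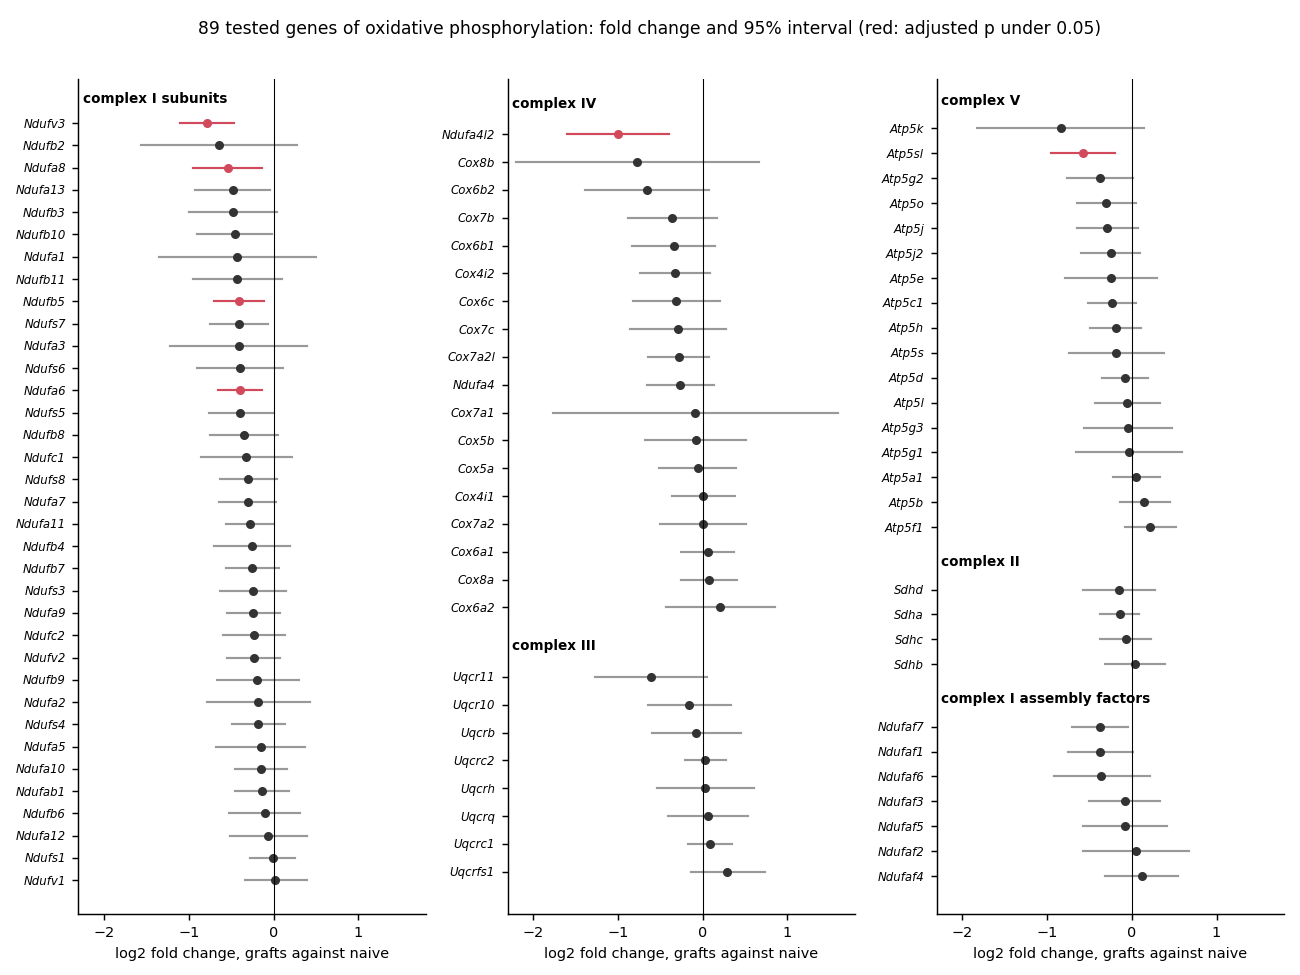
Log2 fold change of 89 of the 90 tested genes in grafts against naive lungs, by complex; points are the fitted values, lines their 95% intervals, and red marks an adjusted p under 0.05. The 6 red genes lie below 0, and the intervals of most other genes cross 0.

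Complex I, the NADH dehydrogenase, held 4 of the 6 called genes. Of its 36 subunits 4 fell, 0 rose and 32 were not called, and the median log2 fold change was -0.29. Without cold-ischemia replicate 2 and shock replicate 1 the median was -0.13, and 3 were called, all lower. In 11 of the 36 every graft lay below every naive lung, a pattern seen in 20.0% of all genes tested. Ndufv3, a small accessory subunit of the NADH-binding module (ENSMUSG00000024038, chr17:31520115-31531326, mm10, plus strand), stood at 27.2, 26.5 and 29.3 CPM in naive replicates 1, 2 and 3. Its grafts ranged from 12.6 to 20.8 CPM with a median of 15.6. Every graft was below every naive lung. The log2 fold change was -0.78 ± 0.14 (SE), with an adjusted p of 0.00127 from edgeR. Without cold-ischemia replicate 2 and shock replicate 1 it was -0.69 with an adjusted p of 0.00418. Ndufv3 was called in all 20 alternative analyses run for this comparison, with adjusted p from 1.24e-05 to 0.00874.

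Ndufa8, an accessory subunit held by disulfide bonds in the intermembrane space (ENSMUSG00000026895, chr2:36036326-36049406, minus strand), had 31.0, 30.8 and 34.6 CPM in the naive libraries. The grafts ranged from 15.9 to 26.7 CPM with a median of 23.6, and did not overlap the naive lungs. The lowest 2 values were those of cold-ischemia replicate 2 and shock replicate 1, at 15.9 and 16.4 CPM. The log2 fold change was -0.54 ± 0.19 with an adjusted p of 0.0377 from edgeR, and without those libraries -0.37 with 0.0447. Without cold-ischemia replicate 1 or 2, shock replicate 1 or any of the naive libraries, each alone, the adjusted p lay between 0.0527 and 0.126. It was 0.0541 without both of cold-ischemia replicate 2 and shock replicate 3.

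Ndufb5, an accessory subunit of the membrane arm (ENSMUSG00000027673, chr3:32736990-32751566, plus strand), had 24.6, 25.9 and 20.9 CPM in the naive libraries. Its grafts ranged from 15.3 to 19.5 CPM with a median of 18.8. All were below the naive lungs, naive replicate 3 by little. The log2 fold change was -0.41 ± 0.13 (adjusted p = 0.0325, edgeR). Exons of Ndufb5 overlap those of Mrpl47, on the opposite strand, over 530 bases, and the sources used here do not say whether strand was kept. The call was lost without cold-ischemia replicate 2 (adjusted p = 0.0596), shock replicate 1 (0.0621), naive replicate 1 (0.101) or naive replicate 2 (0.153). It was also lost without both of cold-ischemia replicate 2 and shock replicate 1 (-0.33, adjusted p = 0.0789). The same held when each library's trend with the deposited gene length was removed (-0.27, adjusted p = 0.0637).

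Ndufa6, an accessory subunit of the arm that faces the matrix (ENSMUSG00000022450, chr15:82350139-82354291, minus strand), was singled out after its values were seen. Its naive libraries lay close together, at 34.0, 33.9 and 34.1 CPM, and its grafts ranged from 22.9 to 28.3 CPM with a median of 26.8. No graft reached the naive lungs. The log2 fold change was -0.40 ± 0.12 (adjusted p = 0.019, edgeR), and without cold-ischemia replicate 2 and shock replicate 1 -0.33 with 0.0426. The call was lost without naive replicate 1, 2 or 3 (0.0587, 0.0719 and 0.0579). With each library's trend with the deposited gene length removed, the fold change was -0.25 and not called (adjusted p = 0.0982).

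The core subunits of complex I named next did not pass the test. Ndufs1, the largest iron-sulfur subunit, had a log2 fold change of -0.01 with a 95% interval of -0.28 to 0.25, and Ndufv1, which binds NADH, had 0.02 (-0.34 to 0.39). The iron-sulfur subunits Ndufv2, Ndufs3 and Ndufs8 had -0.23, -0.24 and -0.30. Ndufs7, which holds the iron-sulfur cluster next to the ubiquinone site, had 31.0, 35.4 and 36.1 CPM in naive lungs and 19.4 to 29.4 CPM in grafts. Its groups did not overlap, and the fold change of -0.41 ± 0.15 had an adjusted p of 0.051 from edgeR. Per length, Ndufb9, an accessory subunit of the membrane arm, was the highest of complex I in naive lungs, at 78.6 ± 3.27 deposited FPKM (SD, n = 3; counts scaled by gene length and library total).

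Of the 7 complex I assembly factors, which build the enzyme and are not part of it, 0 were called. Their median log2 fold change was -0.08, with and without cold-ischemia replicate 2 and shock replicate 1. Ndufaf3 was the highest of them per length, at 15.2 ± 1.47 FPKM in naive lungs (SD, n = 3), and had a log2 fold change of -0.08 with an interval of -0.50 to 0.33. Ndufaf7, a methyltransferase singled out after its values were seen, had -0.38 (adjusted p = 0.0679, edgeR).

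**Figure D2:**
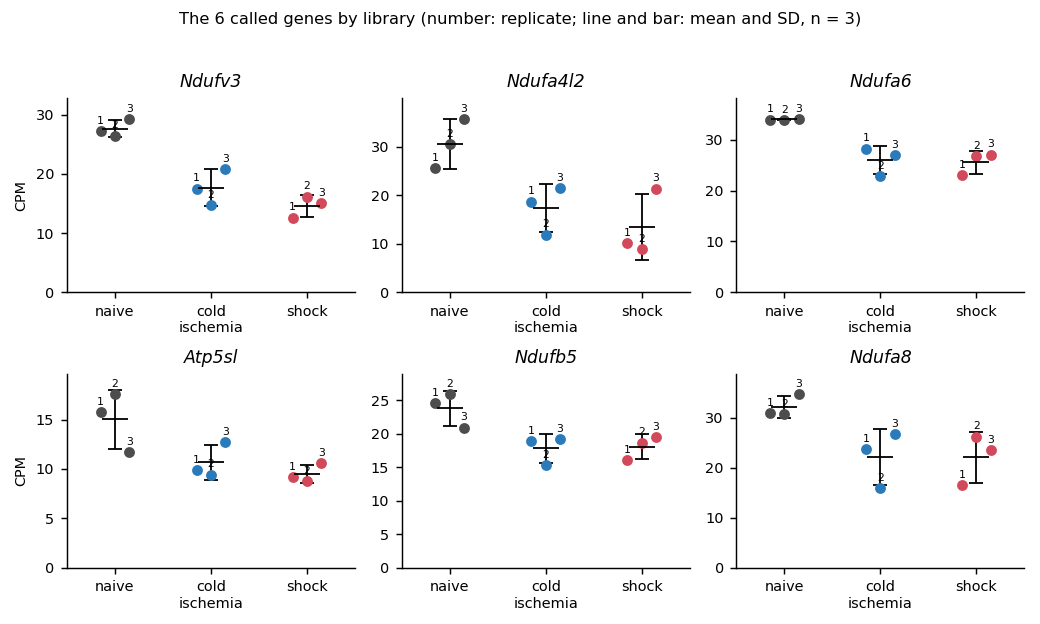
CPM of the 6 called genes in each library, with replicate numbers beside the points; lines and bars are the mean and SD of the 3 libraries of a group. Grafts lie below naive lungs for each gene except Atp5sl, where cold-ischemia replicate 3 lies above naive replicate 3.

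In complex II, succinate dehydrogenase, 0 of 4 genes were called, and all 4 intervals lay within 1.5-fold. The median log2 fold change was -0.11, and without cold-ischemia replicate 2 and shock replicate 1 it was 0.04, with 0 called. Sdha, the flavoprotein that oxidises succinate, had 202, 216 and 186 CPM in naive lungs. In grafts it ranged from 166 to 190 CPM with a median of 187, and the groups overlapped. Its log2 fold change was -0.14 with a 95% interval of -0.38 to 0.09. Sdhb, the iron-sulfur subunit, had 0.04 (-0.31 to 0.39), and the membrane anchors Sdhc and Sdhd had -0.07 (-0.37 to 0.23) and -0.15 (-0.58 to 0.28).

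Complex III, cytochrome bc1, had 0 of 8 genes called and a median log2 fold change of 0.03. Without cold-ischemia replicate 2 and shock replicate 1 the median was 0.14 and 1 gene was called, as higher. The median over all grafts was 0.08 above the median of all genes under each of 4 scalings, and turned to -0.17 and -0.29 when libraries were scaled by upper quartile and by totals. Uqcrfs1, the Rieske iron-sulfur protein, had 55.2, 57.8 and 59.0 CPM in naive lungs. In 4 grafts it stood at 76.6 to 84.8 CPM, above all naive lungs, and in cold-ischemia replicate 2 and shock replicate 1 at 46.0 and 53.6 CPM, below them. Over all grafts its log2 fold change was 0.29 ± 0.20 (adjusted p = 0.255, edgeR), and without those libraries 0.48 (adjusted p = 0.00715). The core proteins Uqcrc1 and Uqcrc2 had 0.09 (-0.17 to 0.35) and 0.03 (-0.21 to 0.27). Uqcr11, a small subunit singled out after its values were seen, had 28.4 to 31.2 CPM in naive lungs and 10.2 to 26.5 CPM in grafts, with no overlap and an adjusted p of 0.124.

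Complex IV, cytochrome c oxidase, had 1 of 18 tested genes called, and a median log2 fold change of -0.28. Without cold-ischemia replicate 2 and shock replicate 1 the median was -0.07, which is 0.01 below that of all genes, and 1 gene was called, as lower. The called gene was Ndufa4l2, a paralog of the subunit Ndufa4 known as a hypoxia-inducible gene and as a pericyte marker (ENSMUSG00000040280, chr10:127514939-127517152, plus strand). It had 25.5, 30.4 and 35.7 CPM in naive replicates 1, 2 and 3. Its grafts ranged from 8.92 to 21.5 CPM with a median of 15.2, all below the naive lungs. Its log2 fold change was -1.0 ± 0.27 (adjusted p = 0.0132, edgeR), and without cold-ischemia replicate 2 and shock replicate 1 -0.82 with 0.0492. Without naive replicate 3 the adjusted p was 0.063. Its exons overlap those of Shmt2 on the opposite strand over 32 bases.

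Levels of Ndufa4l2 and of pericyte genes are set side by side. The other 12 pericyte markers measured summed to 1414, 1566 and 1662 CPM in naive lungs and to 627 to 1247 CPM in grafts. Of the 12, 5 fell, beside 19.7% of all genes tested. None of the 12 was at 0 in all libraries. Per 1000 CPM of these markers, Ndufa4l2 stood at 18.0, 19.4 and 21.5 CPM in naive lungs and at 11.5 to 18.9 CPM in grafts. Only cold-ischemia replicate 3, at 18.9 CPM, overlapped the naive lungs, and the other grafts lay below them at 11.5 to 17.1 CPM. Cox4i2, the other member on the pericyte list, stood at 25.5 to 26.7 CPM in naive lungs and 25.3 to 43.7 CPM in grafts on the same scale. The part of pericyte RNA in the fall of Ndufa4l2 was not tested further.

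The other paralog pairs of complex IV were not called. Cox4i2, the isoform of Cox4i1 known from lung and from oxygen-sensing cells, took 29.6% to 34.4% of the summed CPM of the pair in naive lungs and 20.0% to 30.8% in grafts. Its log2 fold change was -0.33 with an interval of -0.74 to 0.09, and that of Cox4i1 was 0.01 (-0.36 to 0.38). Cox6b2, the isoform of Cox6b1 best known from testis, had 5.93 to 7.79 CPM in naive lungs, and 2.34, 1.94 and 4.97 CPM in the shock grafts. In the cold-ischemia grafts it had 7.12, 3.03 and 6.88 CPM, overlapping the naive lungs.

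The isoforms of striated muscle varied between libraries within a group. Cox7a1 had 2.003, 2.759 and 1.796 CPM in naive lungs, 4.40, 0.574 and 0.692 CPM in cold-ischemia grafts and 0.167, 2.79 and 3.75 CPM in shock grafts. Cox8b had 1.17, 1.94 and 1.42 CPM in naive lungs, 1.36, 0.164 and 0.231 CPM in cold-ischemia grafts and 0.377, 1.05 and 2.58 CPM in shock grafts. The same 3 grafts, cold-ischemia replicates 2 and 3 and shock replicate 1, were lowest for both.

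Cardiac muscle, which in mice reaches along the pulmonary veins into the lung, varied in the same libraries. Its 20 markers summed to 557 to 1019 CPM in naive lungs, to 1489, 255 and 176 CPM in cold-ischemia grafts and to 212, 551 and 1689 CPM in shock grafts. Of the 19 markers tested 0 were called, and none of the 20 was at 0 in all libraries. Fat markers, whose cells also use these isoforms, summed to 71.2 to 304 CPM in naive lungs and 29.4 to 61.1 CPM in grafts, with 7 of 10 lower and 1 higher. Their part in the isoform levels was not tested. Cox6a2, the muscle isoform of Cox6a1, was spread less, with 10.3 to 15.9 CPM in naive lungs and 8.24 to 23.8 CPM in grafts. Its exons overlap those of Itgad, a leukocyte integrin gene, on the opposite strand over 70 bases.

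**Figure D3:**
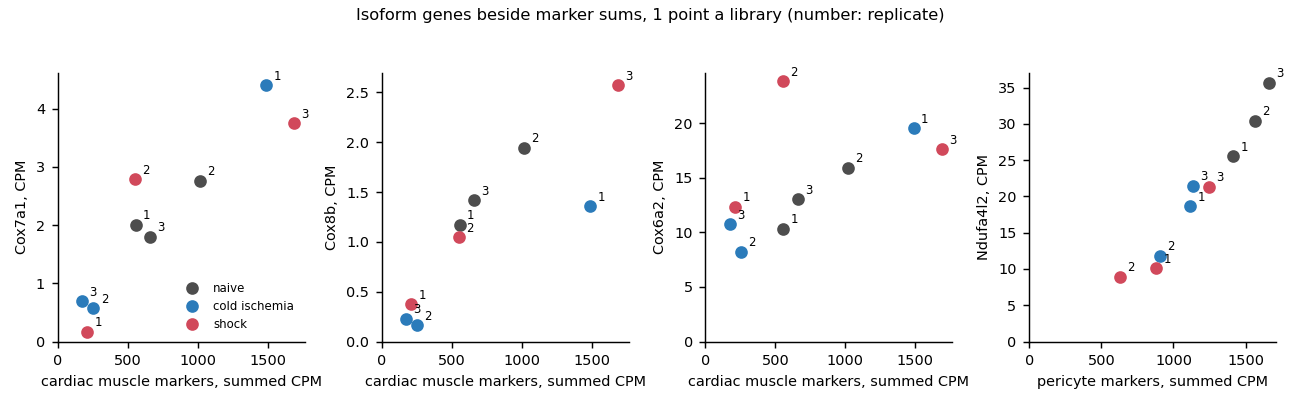
CPM of Cox7a1, Cox8b and Cox6a2 against the summed CPM of 20 cardiac muscle markers, and of Ndufa4l2 against that of 12 pericyte markers, 1 point a library with its replicate number. Cold-ischemia replicates 2 and 3 and shock replicate 1 are low on both axes for Cox7a1 and Cox8b, and the naive lungs are highest on both axes for Ndufa4l2.

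The abundant complex IV subunits were not called. Per length, Cox6a1 and Cox8a were the highest of the complex in naive lungs, at 236 ± 5.31 and 228 ± 6.73 FPKM (SD, n = 3), which is within their spread of each other. Their log2 fold changes were 0.06 (-0.25 to 0.37) and 0.08 (-0.26 to 0.41). Ndufa4, at 148 ± 3.44 FPKM, had -0.27 (-0.66 to 0.13), and Cox7a2l had -0.28 (-0.64 to 0.07). Cox5a and Cox5b, which sit on the matrix side of the enzyme, had -0.06 and -0.08, and Cox6b1 and Cox7a2 had -0.34 and 0.01.

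Complex V had 1 of 17 genes called, and a median log2 fold change of -0.19. Without cold-ischemia replicate 2 and shock replicate 1 the median was -0.09, with 0 genes called lower and 1 higher. The called gene was Atp5sl, now named Dmac2, which is known as a factor for building the membrane arm of complex I (ENSMUSG00000057229, chr7:25619414-25625551, plus strand). It had 15.8, 17.6 and 11.7 CPM in naive lungs, and its grafts ranged from 8.77 to 12.7 CPM with a median of 9.66. Cold-ischemia replicate 3 overlapped naive replicate 3. The log2 fold change was -0.57 ± 0.17 (adjusted p = 0.0202, edgeR). The call was lost without naive replicate 1 (adjusted p = 0.0724), without naive replicate 2 (0.123), and without both of cold-ischemia replicate 2 and shock replicate 1 (0.0647).

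No subunit of ATP synthase itself was called. Atp5b, the catalytic beta subunit, was the highest of all 92 genes per length, at 284 ± 16.5 FPKM in naive lungs (SD, n = 3), and had 443 to 497 CPM there. In grafts it ranged from 439 to 597 CPM with a median of 515, and the groups overlapped. Its log2 fold change was 0.15 (-0.14 to 0.45). The alpha subunit Atp5a1 had 0.05 (-0.22 to 0.33), and the stalk subunits Atp5c1, Atp5d, Atp5e and Atp5o had -0.23, -0.08, -0.24 and -0.30. Atp5f1, a subunit of the peripheral stalk singled out after its values were seen, had 110 to 116 CPM in naive lungs and 100 to 155 CPM in grafts. It was not called over all grafts (0.22 ± 0.14, adjusted p = 0.22, edgeR), and without cold-ischemia replicate 2 and shock replicate 1 it was 0.33 with 0.034.

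Low values in cold-ischemia replicate 2 and shock replicate 1 were spread over all the complexes. Of the 90 genes, 87 lay below the naive mean in each of these libraries, and 51 and 42 lay more than 1.5-fold below it. In the other grafts 1 to 5 genes did. By complex, the medians in cold-ischemia replicate 2 were -0.66 for complex I subunits, -0.38 for complex II, -0.58 for complex III, -0.84 for complex IV and -0.63 for complex V, on the log2 scale. In shock replicate 1 they were -0.62, -0.28, -0.40, -0.70 and -0.40. The median of all genes was -0.05 and -0.08 in these libraries.

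**Figure D4:**
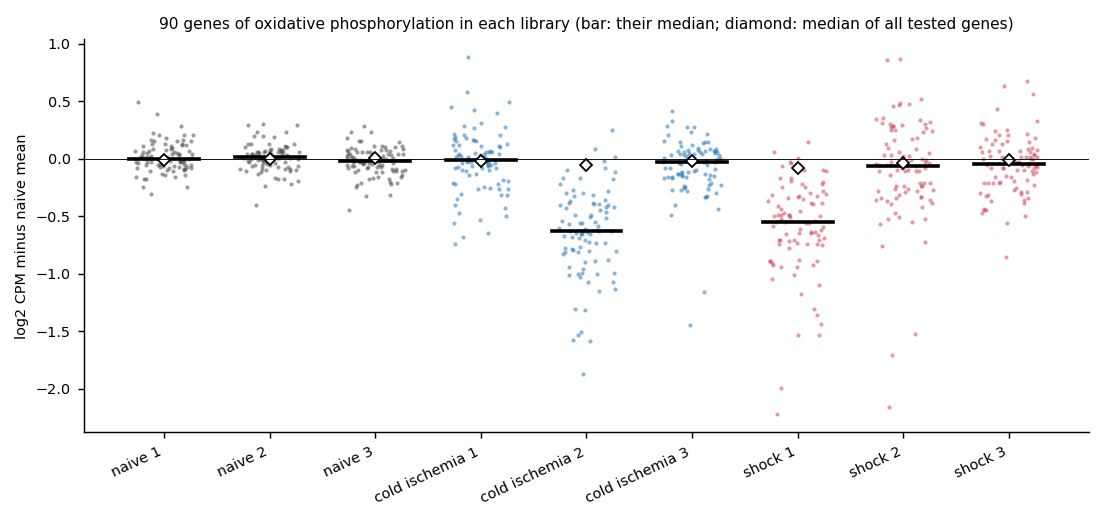
Log2 CPM of each of the 90 genes minus its mean over the naive libraries, by library; bars are the medians of these genes and diamonds the medians of all 15834 genes tested. Cold-ischemia replicate 2 and shock replicate 1 lie at -0.63 and -0.55, and the diamonds of all libraries lie near 0.

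Ndufa1, a small complex I subunit encoded on the X chromosome and singled out after its values were seen, shows the pattern. It had 4.10 and 5.32 CPM in these libraries, and 14.4 to 19.0 CPM in the other 7. Other short transcripts were low there too. The median of 81 cytosolic ribosomal protein genes was -0.48 and -0.33 from the naive mean, against 0.09 to 0.22 in the other grafts. Mitochondrial ribosomal protein genes, 76 of them, had -0.53 and -0.52, and -0.31 to -0.10 in the other grafts. The 12 genes of the mitochondrial genome had 0.14 and 0.28, and 0.00 to 0.51 in the other grafts.

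Transcript length moved with the deviation in these libraries. The principal transcripts of the 90 tested genes had a median of 892 bases, against 2990 bases for 14596 tested genes with one. Spearman's rho between length and deviation, across the 90 genes as a description, was 0.59 in cold-ischemia replicate 2 and 0.49 in shock replicate 1. It lay between -0.01 and 0.11 in the other 4 grafts. Across 14596 genes it was 0.22 and 0.16, against -0.04 to 0.05. Genes share their library and are not independent replicates.

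By length, the 20 members of up to 600 bases had medians of -0.92 and -0.75 in these libraries, and the 8 members of 2000 to 4000 bases -0.28 and -0.26. The 2 members over 4000 bases, Ndufb2 and Atp5g1, did not follow this order, with medians of -0.56 and -0.73. All tested genes of up to 600 bases had medians of -0.55 and -0.47, and those of 2000 to 4000 bases -0.05 and -0.08. Those over 4000 bases had 0.14 and 0.09. In each length class of both libraries the median of the members lay below that of all tested genes. In a setting chosen after seeing the data, each library's trend with deposited gene length, not principal transcript length, was removed over all genes. The median of the members in grafts was -0.12, against -0.01 for all genes. Then 4 members, and 43.2% of all genes, were called, the 4 all lower: Ndufv3, Ndufa8, Ndufa4l2 and Atp5sl. What sets the trend in these libraries was not tested.

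**Figure D5:**
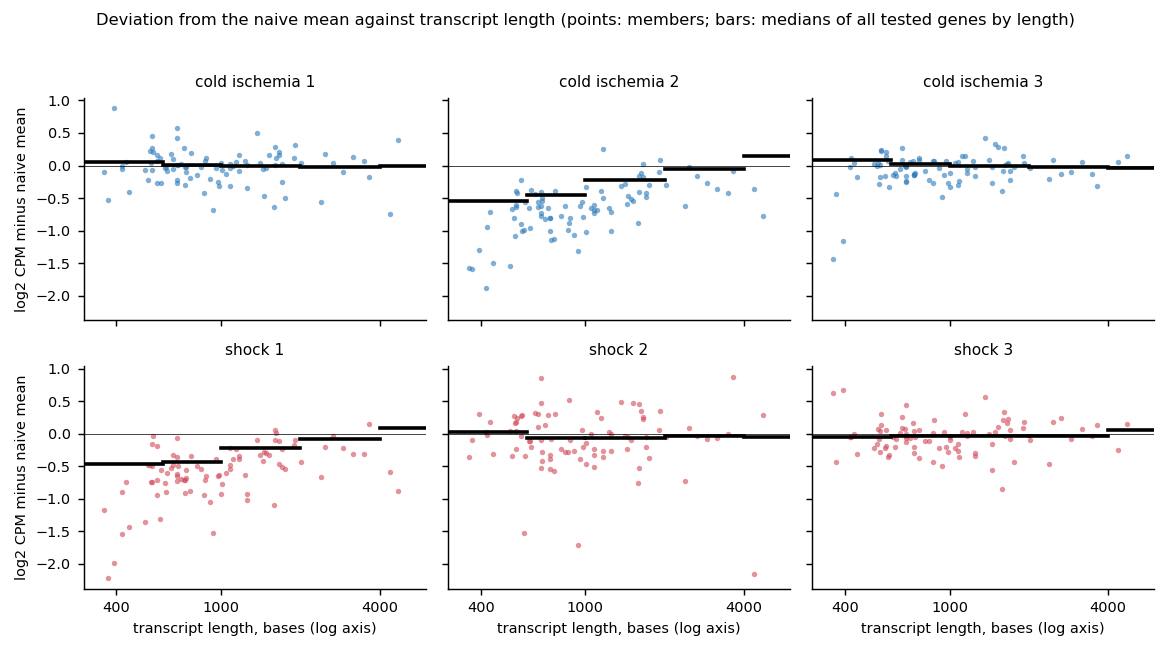
Log2 CPM minus the naive mean against the length of the principal transcript (log axis) in each of the 6 grafts; points are the 90 members and bars the medians of all tested genes in 5 length classes, the last of which runs on past the axis. Members of up to 600 bases are low in cold-ischemia replicate 2 and shock replicate 1, and the bars rise with length in the same libraries.

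Taken group by group against the same 3 naive lungs, cold-ischemia grafts had 1 of 90 genes called and shock grafts 4, all lower. The called share of all genes was 30.6% and 39.9%, and 13.1% and 17.9% were called lower. In cold-ischemia grafts the gene was Ndufv3 (-0.65 ± 0.17, adjusted p = 0.0136, edgeR), and without cold-ischemia replicate 2 it missed the threshold (-0.53, adjusted p = 0.0509). In shock grafts they were Ndufv3 (-0.92), Ndufa4l2 (-1.18), Atp5sl (-0.66) and Ndufa6 (-0.41). Without shock replicate 1 the count in shock grafts was 1, beside 34.1% of all genes. It was 9 without cold-ischemia replicate 2 and 7 without shock replicate 3, beside 39.4% and 40.9%. Without naive replicates 1, 2 and 3 in turn it was 2 each time, beside 30.5%, 28.5% and 32.7%. In cold-ischemia grafts the count was 0 without cold-ischemia replicate 2, beside 24.4% of all genes. It was 2 without cold-ischemia replicate 1 (22.0%), shock replicate 2 (34.8%), shock replicate 3 (31.5%) or naive replicate 3 (24.7%). With the tables' grouping the counts were 2 in cold-ischemia grafts and 32 in shock grafts, beside 34.8% and 46.1% of all genes. Both comparisons share the naive libraries.

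Whether donor shock changed these genes was asked by the contrast of shock with cold-ischemia grafts. None of the 90 genes was called by edgeR, and 0.0% of all 15834 genes were called. At an unadjusted p under 0.05 there was 1 member, against 7.28% of all genes, and DESeq2 called 0 members and 6 genes in all (0.0251%). That member was Ndufaf4, an assembly factor, which had 9.30, 10.04 and 8.40 CPM in cold-ischemia grafts and 11.8, 19.8 and 11.7 CPM in shock grafts. The groups did not overlap, the naive lungs had 9.95 to 11.8 CPM, and the log2 difference was 0.64 ± 0.22 (adjusted p = 0.671, edgeR). For 45 of the 90 genes the interval of the difference lay within 1.5-fold, and for the other 45 the spread between libraries did not bound it so closely.

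This contrast depended on the grouping. With the grouping of the tables, 2 members were called as lower in shock grafts, Ndufa4l2 (-0.99, adjusted p = 0.0338) and Cox6b2 (-1.37, adjusted p = 0.0376), while 0.783% of all genes were called by edgeR. Cold-ischemia replicate 2 and shock replicate 1 are then both in the shock group, and the median of the members was -0.35 against 0.00 for all genes. In the authors' deposited table of this contrast, 4 members and 3.1% of all genes had an adjusted p under 0.05, the 4 all lower: Ndufa4l2, Cox6b2, Cox4i2 and Cox7a2l. In the authors' deposited table of shock grafts against naive lungs 24 members were lower and 0 higher, beside 37.3% of all genes called. In the authors' deposited table of cold-ischemia grafts, with 36.2% of all genes called, 4 were lower and 3 higher, the latter being Uqcrfs1, Atp5f1 and Uqcrh.

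The mitochondrial genome encodes the core subunits that the nuclear genes complete. Of its 12 tested protein-coding genes 1 rose and 0 fell, and the median log2 fold change in grafts was 0.28. The gene was mt-Nd5, a proton-pumping subunit of complex I, at 2248 ± 221 CPM in naive lungs (SD, n = 3) and 3188 ± 438 CPM in grafts (SD, n = 6). Its log2 fold change was 0.50 ± 0.17 (adjusted p = 0.033, edgeR). As a share of library counts, without TMM scaling, all 13 genes took 1.94% to 2.32% in naive libraries and 1.76% to 2.58% in grafts. Summed with TMM scaling, they stood at 17160 to 19830 CPM in naive lungs and 19220 to 27550 CPM in grafts.

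Factors that build or translate the complexes are given by their own counts. Beside the counts of these and the following lists, 22.1% of all genes tested were called higher in grafts and 19.7% lower. The counts are over all grafts, with cold-ischemia replicate 2 and shock replicate 1 included. Of 36 assembly factors outside the Nduf names 12 fell and 1 rose, with a median of -0.42. Tmem126b, for complex I, went from 15.3 ± 1.23 to 6.01 ± 1.27 CPM (-1.35), Bcs1l, which places the Rieske protein in complex III, from 7.46 ± 0.547 to 3.59 ± 0.660 CPM (-1.07), and Taco1, a translation activator for complex IV, from 6.18 ± 0.452 to 2.95 ± 0.828 CPM (-1.07). Of 76 mitochondrial ribosomal proteins 24 fell and 2 rose, with a median of -0.33. Of 81 cytosolic ribosomal proteins 2 fell and 1 rose.

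Other parts of mitochondrial metabolism were mixed. Among 21 genes for ubiquinone, cytochrome c and the exchange of ATP, ADP and phosphate, 3 rose and 3 fell. Those that changed most were Pdss1 (1.02), Coq3 (-0.77) and Coq9 (-0.75), all of ubiquinone synthesis. Cycs, cytochrome c, named here after its values were seen, went from 34.6 ± 3.16 to 54.3 ± 12.03 CPM (0.64, adjusted p = 0.0142, edgeR). Of 18 genes of the tricarboxylic acid cycle 2 rose, Dlst (0.50) and Dld (0.40), and Idh2 fell (-0.41). Among 6 kinases and phosphatases of pyruvate dehydrogenase 2 rose and 2 fell. Pdk4, which shuts that enzyme off, went from 18.8 ± 8.28 to 154 ± 39.1 CPM (3.03), while Pdk2 and the phosphatase Pdp2 had -1.04 and -0.71.

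In glycolysis 11 of 18 genes rose and 0 fell, with a median of 0.47. Hexokinase Hk2 went from 22.5 ± 1.74 to 206 ± 33.2 CPM (3.19), the lactate carrier Slc16a3 from 9.09 ± 0.584 to 81.8 ± 24.8 CPM (3.17) and Pfkfb3, which sets the level of a glycolytic activator, from 126 ± 30.1 to 965 ± 143 CPM (2.94).

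Of 17 regulators of mitochondrial biogenesis 7 rose and 2 fell. Gabpb1, partner of the ETS factor GABP, went from 23.3 ± 0.545 to 84.1 ± 10.2 CPM (1.85), Pprc1, a coactivator, from 22.6 ± 9.59 to 81.2 ± 27.5 CPM (1.82) and Ppard from 36.3 ± 3.78 to 100 ± 8.08 CPM (1.46). Of the factors whose motifs were searched, named here after their values were seen, Nrf1 (0.35, adjusted p = 0.0418) and Yy1 (0.33, adjusted p = 0.041, edgeR) rose, and Gabpa had 0.02. Of 13 mitophagy and stress genes 3 fell and 1 rose, the chaperone Hspa9 (0.98). Of 9 uncoupling and antioxidant genes 3 rose and 1 fell, and Sod2, the superoxide dismutase of the matrix, had the largest change (2.13).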

How the data were processed

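RNA of whole left lungs was sequenced from 9 libraries in 3 groups of 3, from 1 µg of total RNA with a NEBNext Ultra II kit, as read pairs of 150 bases, per the labels' protocols. The members and gene lists were chosen with earlier results of these data known.

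There are 3 deposited tables, each on 2 of the groups. The build mm10 and the tools HTSeq, STAR, edgeR, STAR-Fusion and DESeq2 are named, per the submitters' processing notes. Their versions, the gene annotation and the handling of reads with several placements are not given in the sources used here. The deposited read counts per gene are whole numbers without normalization, per the file headers. The deposited FPKM was equal to the count scaled by the table's gene length and the library total, without TMM, so it was used only to order genes within a group. The deposited signal, the authors' normalized count, was not analysed here. Each deposited table also has the authors' own log2 fold changes, p-values and adjusted p-values, named as theirs where used.

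Tables were joined by gene identifier, with 0 differing counts in the 9 repeated columns and 0 columns left unmapped. Counts were tested with edgeR 4.0.16 in R 4.3.3 (TMM scaling, filterByExpr, 1 mean per group over all 9 libraries, quasi-likelihood test, two-sided), with 6 residual degrees of freedom. Adjusted p-values are Benjamini-Hochberg over all 15834 genes tested, and genes under 0.05 were called. Intervals are 95%. Values by library are log2(CPM + 0.5) minus the naive mean. The contrast of grafts with naive lungs takes the mean of both graft groups. The fit of grafts against naive lungs was also run on simulated counts, with known rises and falls in a minority of genes. That simulation held no outlying library and no trend with length, so it does not cover those features of the data.

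Named were, in each class, up to 3 called genes of at least 2 CPM with the largest rise and fall, the isoform and catalytic genes, the highest gene per length, and up to 5 genes with the smallest p between the graft groups. 1 gene that this rule names is not reported here. Up to 3 genes were named from each list, and members were removed from the marker lists. Alternatives were RLE, upper quartile and total scaling, no filter, DESeq2 1.42.0, a replicate block, the tables' grouping, 2 groups, 6 libraries at a time and leaving out each library. Added after seeing the data was leaving out cold-ischemia replicate 2 together with shock replicate 1 or 3. Removal of a trend with the deposited gene length (lowess, span 0.3) was added after seeing the data too.

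Principal transcript lengths and exon overlaps are from GENCODE release M21. Near-identical copies were searched with BLAST 2.17.0 at 95% identity over 50% of the transcript. Copies were found for 11 members and held under 5% of the reads of each. Exons of 32 members overlap another gene, in 29 cases on the opposite strand.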

Additional observations from a re-analysis of the deposited data

Results flagged for a closer look

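Of 45 members compared over the 6 grafts, 1 had a library that stood apart by its gap to the next. Ndufaf4, an assembly factor of complex I, had 19.8 CPM in shock replicate 2, while the other grafts lay between 8.40 and 11.8 CPM. The gap took 0.703 of the whole range, where 0.625 is the 95% critical value for 6 samples, and chance flags about 1 in 20 such groups.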

How the results depend on the processing

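Of 1800 values of named genes under alternatives, 1737 kept their side of the threshold with no called gene changing sign, 22 lost a call and 40 gained one, and in 244 of the 1737 the sign changed with no call in either. Uqcrc2 in grafts reversed under scaling by totals, from 0.03 to -0.29 with an adjusted p of 0.0461. The counts of members that differed by more than 1.5 times follow, for grafts, cold-ischemia grafts and shock grafts against naive lungs (6, 1 and 4 as reported). Scaling by upper quartile gave 32, 8 and 24, scaling by totals 50, 29 and 42, and grouping by the tables gave 18, 2 and 32. Of all genes, 48.7%, 35.1% and 46.4% were called under the first of these, 54.2%, 40.8% and 51.1% under the second, and 46.4%, 34.8% and 46.1% under the third. DESeq2 gave 2 in cold-ischemia grafts (29.2% of all genes), the fit of 6 libraries 4 (37.0%), and the length trend 2 (32.3%). The next alternatives were chosen after seeing the data. Leaving out cold-ischemia replicate 2 and shock replicate 3 gave 10 in grafts (41.7% of all genes) and 17 in shock grafts (42.1%). Leaving out cold-ischemia replicate 2 and shock replicate 1 gave 2 in cold-ischemia grafts (24.4%), 1 higher and 1 lower. Between the graft groups the tables' grouping gave 2 members, and 124, 6 and 39 genes were called under the tables' grouping, under DESeq2 and without cold-ischemia replicate 2 and shock replicate 3, beside 0 as reported. Leaving out single libraries gave 2 to 10 members in grafts, 0 to 2 in cold-ischemia grafts and 1 to 9 in shock grafts, and 4803 to 7114, 3371 to 5662 and 4613 to 6635 genes in all. Between the graft groups it gave 0 members and 0 genes. The cause of these shifts was not tested. A replicate block gave 5 members in grafts (38.6% of all genes), 2 in cold-ischemia grafts (27.1%) and 4 in shock grafts (36.6%). It gave 0 between the graft groups (0.0%), and Ndufb5 in grafts lost its call (adjusted p = 0.0649, edgeR). Libraries of the same number correlated in their deviations at -0.394 to 0.0965. The titles name no shared animal or day, and these values cannot settle whether the numbers pair the samples. Cox8b and Cox7a1 had as few as 4 reads in a library, which limits their fold changes.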
